A study of Caenorhabditis elegans with 12 samples.

Results

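The genes described here encode the cathepsin and aspartyl proteases of the nematode Caenorhabditis elegans together with PEPT-1, the peptide transporter of its gut. Members were the gene rows named asp, cpr, cpl or cpz followed by a number, with pept-1 added, which gave 16 of the 45836 gene rows in the table. They comprise 6 aspartyl proteases (asp-1 to asp-6), 6 cathepsin B-like cysteine proteases (cpr-1 to cpr-6), 3 cathepsin L and Z genes (cpl-1, cpz-1 and cpz-2) and pept-1. All but cpr-2 passed the filter on low counts, so 15 were tested. In cpr-2 only 9 counts were found over all 12 libraries.

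RNA came from whole gravid adults in 4 groups of 3 libraries. The control group was strain N2 (wild type) kept at 20 °C. The F0 group was N2 that spent 5 generations at 25 °C, harvested when 54 to 56 h had passed since eggs were plated. The F3 group descended from F0 animals moved back to 20 °C for 3 generations, with harvest at 72 to 76 h. The set-25 group was strain MT17463, which carries set-25(n5021), an allele of a histone H3 lysine 9 methyltransferase gene. It was raised throughout at 20 °C, and harvest again fell at 72 to 76 h. All groups were grown on plates without starvation and carried no transgene named in the labels, and each library came from 3 plates. The labels do not state the control group's hours since plating separately. The F0 animals differed from F3 and set-25 in both temperature and hours, which cannot be told apart, and a difference in hours from control was not tested. The labels give the mutants no wild-type population grown alongside and their libraries have a separate run of numbers, so genotype and library series cannot be told apart either. In whole animals, fewer cells of a type and less RNA per cell cannot be told apart.

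In worms, as in other animals, dietary and cellular protein is broken down in acidic compartments by enzymes of 2 catalytic types. Aspartyl proteases of the cathepsin D kind use a pair of aspartates, and cathepsins B, L and Z use a cysteine. They are made as inactive precursors that mature at low pH. In the worm many of them are made in the intestine, where they act in the gut lumen and in lysosomes. The short peptides they release are taken up across the apical membrane by PEPT-1, a proton-coupled transporter. The intestine also makes yolk, and cathepsin L (cpl-1) takes part in yolk processing in the embryo. The cpz genes are known chiefly for a part in moulting and in the epidermis, so the word intestinal does not describe every member, and RNA from whole animals cannot show the tissue of origin.

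Gene counts per library were 27977220 to 35192871 in the 9 wild-type libraries. The set-25 libraries 1, 2 and 3 held 21675178, 26069551 and 9378988. Ribosomal RNA genes took 2.69 to 4.22% of gene counts in wild type, and 7.9%, 3.51% and 16.4% in set-25 libraries 1, 2 and 3. Every marker list for intestine, pharynx, epidermis, body wall muscle, neurons, coelomocytes, sperm and oocytes was detected, with 0 genes at 0 in all libraries. Levels are CPM, counts relative to library size after TMM scaling (edgeR's trimmed mean of M values), given as mean ± SD over 3 libraries. Differences are log2 fold changes with their standard error (SE). A gene was called where its adjusted p was under 0.05 by edgeR's quasi-likelihood test with Benjamini-Hochberg adjustment over 14466 genes.

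The 15 protease members together held 8651 to 8858 CPM in the control libraries and 7452 to 7658 CPM in F0. Their summed level was 8266 to 9027 CPM in F3 and 8728 to 8990 CPM in set-25. On this scale the F0 range lay below the other ranges, while F3 and set-25 overlapped control. As a percentage of gene counts, without TMM scaling, F0 held 0.772 to 0.797% and lay inside the set-25 range of 0.765 to 0.909%. The F0 range stayed below the control range of 0.877 to 0.887% and the F3 range of 0.838 to 0.9435%. Sums by class were computed only with TMM scaling. By class, the summed level of the aspartyl members fell outside the control range of 4749 to 4779 CPM in F0, at 4055 to 4201 CPM. For the cathepsin B-like members the control range was 2172 to 2327 CPM and the F0 range 1692 to 1875 CPM. The cathepsin L and Z members held 1701 to 1782 CPM in control and 1657 to 1689 CPM in F0, a smaller gap between groups that also did not overlap. In set-25 the summed aspartyl level, 4985 to 5221 CPM, lay above the control range and the cathepsin B-like sum, 2014 to 2077 CPM, below it, while the cathepsin L and Z sum overlapped control.

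To compare levels between genes, CPM was divided by exon length in the WBcel235 annotation. In control libraries asp-1, an intestinal aspartyl protease, had the highest level per length at 1194 ± 14.2 CPM per kb of exon, and cpl-1 followed at 1148 ± 34.2 CPM per kb. Their ranges of 1179 to 1207 and 1111 to 1178 CPM per kb nearly touched. The next were asp-6 at 850 ± 9.54 and cpr-6 at 650 ± 19.9 CPM per kb, then asp-3 at 572 ± 15.5, cpr-4 at 515 ± 27.6 and asp-2 at 452 ± 3.77 CPM per kb. Lower in order were cpr-1 (391 ± 33.6), cpr-5 (366 ± 18.3), cpz-1 (337 ± 5.87), asp-5 (325 ± 5.15) and asp-4 (271 ± 4.01 CPM per kb). The control ranges of cpr-1 and cpr-5 overlapped, as did those of cpz-1 and asp-5. The levels per length of pept-1 (34.8 ± 1.59), cpz-2 (26.9 ± 0.52) and cpr-3 (4.69 ± 0.48 CPM per kb) were far lower, so the members spanned a wide range.

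**Figure D1:**
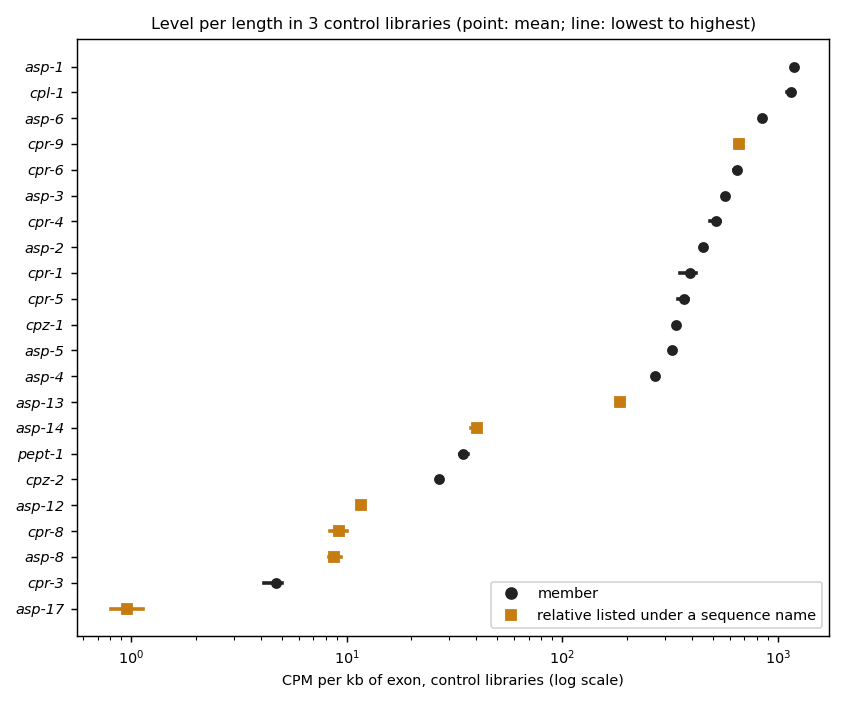
Level per length in the 3 control libraries, in CPM per kb of exon on a log axis, for 15 members (circles) and 7 related genes listed under sequence names (squares). Points are means and lines run from the lowest to the highest library. The circles run from 4.69 for cpr-3 to 1194 for asp-1.

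At 25 °C the members did not move as a block. Compared with control, 7 were lower and 3 higher in F0, and 5 were not called. Over all genes tested 28.7% were called, with 12% lower and 16.6% higher. The median log2 fold change was -0.15 for the 15 members and 0.01 for all genes tested. Groups did not overlap for 12 of the members, 9 of them lower and 3 higher. The same held for 50.4% of all genes tested, with 24.3% lower and 26.1% higher. The cathepsin B-like genes cpr-3, cpr-4 and cpr-5 fell most, pept-1 and the aspartyl genes asp-6, asp-3 and asp-1 fell less, and cpz-1, cpz-2 and asp-5 rose slightly.

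Among the cathepsin B-like genes, cpr-4 encodes a protease that can be secreted and is known for effects on distant cells after irradiation. Its level was 613, 550 and 581 CPM in control libraries 1 to 3, and 314, 309 and 326 CPM in F0. Every F0 library was below every control library, and the log2 fold change was -0.88 (SE 0.09, adjusted p 2.84e-05 by edgeR), or 0.544 of the control level. The level of cpr-5 was 460, 417 and 447 CPM in control and 259, 293 and 232 CPM in F0, also without overlap (-0.76, SE 0.08, adjusted p 7.5e-06 by edgeR). For cpr-3, the least abundant member tested, the libraries held 5.65, 6.84 and 6.75 CPM in control against 3.47, 3.64 and 2.96 CPM in F0 (-0.94, SE 0.14, adjusted p 7.55e-05 by edgeR). These 3 genes had the largest differences of all members. The calls held under each of 15 alternative settings.

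The other cathepsin B-like genes tested were not called. The gut enzyme cpr-1 stood at 436, 381 and 449 CPM in control and 368, 501 and 379 CPM in F0, where library 2 was the highest of all 12 and the groups overlapped (log2 -0.02, 95% interval -0.29 to 0.25). Its replicate spread in F0 was the widest of any member, with a coefficient of variation of 17.8%. Levels of cpr-6 were 795, 816 and 844 CPM in control and 748, 768 and 799 CPM in F0, with a slight overlap (-0.08, 95% interval -0.19 to 0.02). So within 1 gene class the differences ran from -0.94 to -0.02 on the log2 scale.

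The peptide transporter gene pept-1 was expressed at 94.1, 95.4 and 102 CPM in control and at 66.0, 62.3 and 66.9 CPM in F0. The groups were well separated, and pept-1 had the smallest adjusted p of the members (log2 -0.58, SE 0.05, adjusted p 2.72e-07 by edgeR), with 0.669 of the control level remaining. This call held under all 15 alternatives. Its relatives pept-2 and pept-3 were not called in F0. Every F0 library of pept-2 was nevertheless below every control library (log2 -0.18, SE 0.08, adjusted p 0.0811 by edgeR). For pept-3 the groups overlapped (0.03, SE 0.11).

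The aspartyl proteases split. The level of asp-6 was 1094, 1089 and 1071 CPM in control and 839, 803 and 820 CPM in F0, a difference of log2 -0.40 (SE 0.05, adjusted p 2.31e-05 by edgeR). For asp-3, a lysosomal cathepsin D-like enzyme known for its part in necrotic cell death, levels of 820, 863 and 828 CPM in control compared with 661, 669 and 635 CPM in F0 (-0.35, SE 0.05, adjusted p 2.53e-05 by edgeR). Both genes were lower in every F0 library. The most abundant member, asp-1, was at 1437, 1404 and 1425 CPM in control and 1235, 1225 and 1127 CPM in F0 (-0.25, SE 0.07, adjusted p 0.00769 by edgeR). This call was lost when library totals were used without TMM factors (-0.21, adjusted p 0.0619), and over all its alternatives the adjusted p ran from 2.1e-06 to 0.0619.

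In contrast, asp-5 rose from 410, 398 and 400 CPM in control to 463, 448 and 455 CPM in F0 (log2 0.18, SE 0.04, adjusted p 0.00599 by edgeR). The groups did not overlap, although the gain was small. Levels of asp-2 were 618, 628 and 626 CPM in control and 631, 617 and 635 CPM in F0, which overlapped (0.01, 95% interval -0.08 to 0.10). The partner of asp-3 in necrosis, asp-4, had 389, 398 and 400 CPM in control and 373, 354 and 384 CPM in F0 (-0.09, 95% interval -0.19 to -0.0028). It did not overlap between groups but missed the threshold (adjusted p 0.115 by edgeR).

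Both cathepsin Z genes rose. The level of cpz-1 was 328, 336 and 339 CPM in control and 394, 382 and 394 CPM in F0 (log2 0.22, SE 0.06, adjusted p 0.00711 by edgeR). For cpz-2 it was 41.7, 42.9 and 41.4 CPM in control and 50.02, 52.0 and 48.5 CPM in F0 (0.26, SE 0.07, adjusted p 0.00835 by edgeR). No F0 library of either gene reached down to the control range. The cathepsin L gene cpl-1 lay on the other side, with 1376, 1322 and 1401 CPM in control and 1245, 1233 and 1214 CPM in F0 (-0.15, SE 0.06). It just missed the threshold (adjusted p 0.0521 by edgeR) and was called under 6 of 15 alternatives, DESeq2 among them (adjusted p 0.0128), with a range of 0.000297 to 0.316.

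**Figure D2:**
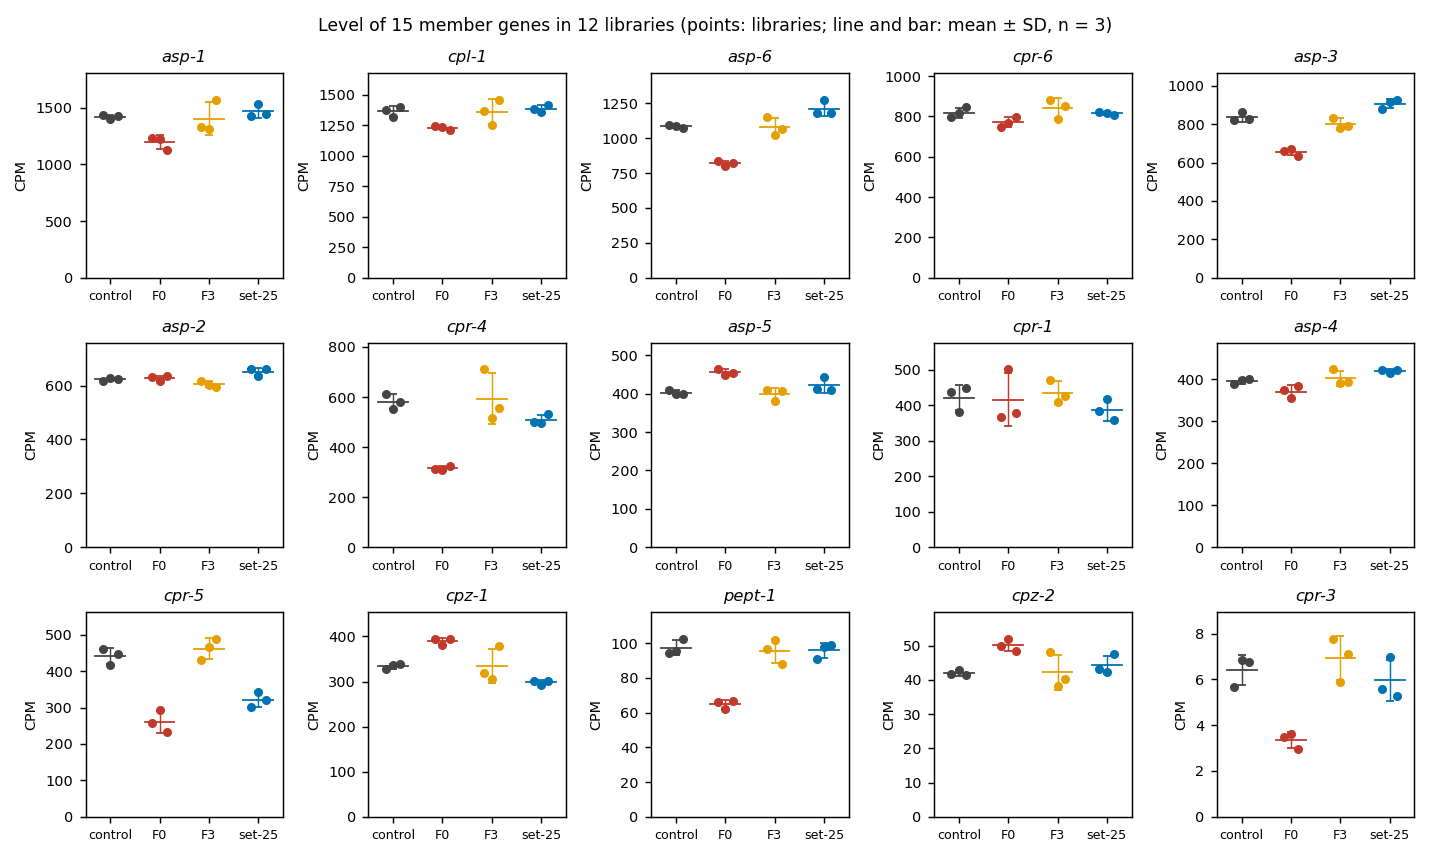
CPM of the 15 members tested in each of 12 libraries, on linear axes from 0. Points are libraries in replicate order, horizontal lines are means and bars are SD (n = 3). The F0 points of cpr-3, cpr-4, cpr-5 and pept-1 sit below all others, and those of cpz-1 sit above the other 9 libraries.

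Markers of several other tissues moved in F0 as well, while 0 of 10 neuron and 0 of 3 coelomocyte markers were called by edgeR, with 0 at an unadjusted p under 0.05. Over all genes tested 16.6% were higher and 12% lower in F0. Of 10 epidermis markers 4 were higher and 0 lower, and their summed level was 1592 to 1724 CPM against 1293 to 1316 CPM in control. Of 10 pharynx markers tested 3 were higher and 1 lower, and all 12 summed to 351 to 379 CPM against 303 to 323 CPM. A few abundant genes carried both sums. In epidermis col-19, called higher, held a mean of 1156 CPM in control and 1437 CPM in F0. In pharynx myo-1 (145.8 and 177.1 CPM) and myo-2 (112.3 and 131.5 CPM) held most of the sum, and neither was called. Body wall muscle markers were higher in 3 of 8 and summed to 2532 to 2819 CPM against 2041 to 2303 CPM. Sperm markers were higher in 14 of 15 tested, with a summed level of 74.9 to 101 CPM against 5.82 to 18.3 CPM. Oocyte markers were lower in 5 of 11 and summed to 8630 to 9003 CPM against 9456 to 9703 CPM. Of 19 intestine markers 5 were higher and 2 lower, and their summed level overlapped between F0 (1265 to 1310 CPM) and control (1281 to 1343 CPM). The part of these shifts in the results for the proteases was not tested.

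Other genes of protein digestion and of the lysosome were counted from lists. The shares over all genes tested in F0 were 16.6% higher and 12% lower. The cystatin gene cpi-1, an inhibitor of cysteine proteases, was higher in F0 (log2 0.34, SE 0.06), and cpi-2 was not called. Among 13 lysosomal carboxypeptidase and legumain genes 2 were higher and 3 lower, led by pcp-4 (-1.08, SE 0.11). Of 10 aminopeptidase and dipeptidyl peptidase genes 1 was higher and 2 were lower, led by dpf-2 (-0.73, SE 0.07). The list of lysosomal membrane proteins and other hydrolases had 4 of 18 higher and 3 lower, with the acid ceramidase gene asah-1 at 2.21 (SE 0.12). Subunits of the V-ATPase, the pump that acidifies lysosomes, had 1 of 21 higher, which was vha-14 (0.11, SE 0.03), and 2 lower. Among 12 transcription factor genes of intestine and lysosome, pha-4 was higher (0.62, SE 0.17) and nhr-8 lower, while elt-2, hlh-30 and the other 8 were not called. The gene pha-4 was also counted above among the pharynx markers. Amino acid transporters were higher in 2 of 9, led by aat-2 (0.67, SE 0.12), and lower in 1. Median log2 fold changes of these lists lay between -0.07 and 0.23.

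At 3 generations after the return to 20 °C, no member was called against control. By edgeR 0 of 15 were called, 0 had an unadjusted p under 0.05, and DESeq2 called 0. Over all genes tested 0.263% were called. Groups did not overlap for 0 of the 15 members, where 9.21% of all genes tested did not overlap, 4.71% higher and 4.5% lower. Log2 fold changes ran from -0.06 for asp-3 to 0.11 for cpr-3, with a median of 0.0017 over the members and -0.00066 over all genes. Their 95% intervals, taken singly, lay between -0.22 for cpr-1 and 0.38 for cpr-3.

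The genes that fell most at 25 °C overlapped control in the descendants, with more scatter. The level of cpr-4 in F3 libraries 1 to 3 was 710, 516 and 554 CPM, so library 1 was above every control library and library 2 below. For cpr-5 the F3 libraries held 430, 466 and 489 CPM, and for cpr-3 they held 7.77, 5.89 and 7.12 CPM. The pept-1 level was 96.6, 102 and 88.1 CPM, so library 3 was below every control library and the other two were within the control range. In each of these genes the F3 and control ranges overlapped.

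The aspartyl genes also overlapped control in F3. Levels of asp-6 were 1150, 1021 and 1065 CPM, those of asp-3 were 835, 780 and 790 CPM, and those of asp-1 were 1332, 1315 and 1570 CPM. In F3 library 3 asp-1 had its highest value of the 12 libraries. Levels of asp-5 were 409, 380 and 407 CPM, those of asp-2 were 618, 602 and 596 CPM, and those of asp-4 were 423, 391 and 393 CPM. The cysteine protease genes cpl-1 (1369, 1252 and 1458 CPM), cpr-6 (882, 785 and 852 CPM), cpr-1 (472, 409 and 427 CPM), cpz-1 (320, 306 and 378 CPM) and cpz-2 (48.1, 38.4 and 40.3 CPM) also overlapped control. The median coefficient of variation over the 15 members was 7.18% in F3, against 2.7% in control, 3.33% in F0 and 3.96% in set-25.

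Set directly against their 25 °C ancestors, the F3 animals had 8 members higher and 3 lower, where 30.4% of all genes tested were called, 13.1% higher and 17.3% lower. Groups did not overlap for 9 members that were higher and 3 that were lower, against 41.6% of all genes tested, 18.3% higher and 23.3% lower. This comparison shares its F0 libraries with the one above. The largest differences were cpr-3 (log2 1.04, SE 0.14), cpr-4 (0.91, SE 0.09), cpr-5 (0.82, SE 0.08) and pept-1 (0.55, SE 0.05), with adjusted p from 5.2e-07 to 2.5e-05 by edgeR. The aspartyl genes asp-6 (0.40, SE 0.05), asp-3 (0.29, SE 0.05), asp-1 (0.23, SE 0.07) and asp-4 (0.12, SE 0.04) were also higher. The genes lower in F3 were cpz-2 (-0.25, SE 0.07), cpz-1 (-0.22, SE 0.06) and asp-5 (-0.19, SE 0.04). Several of the small differences lost their call in fits with fewer libraries or other settings. The call of asp-4 was lost without F0 replicate 1 (0.14), F0 replicate 2 (0.10) or F3 replicate 1 (0.10). It was also lost with library totals (0.10), no filter on low counts (0.12), the replicate block (0.12) and only the 6 libraries compared (0.13), and its adjusted p over all alternatives ran from 0.0102 to 0.333. That of asp-1 was lost without F0 replicate 3 (0.20) or F3 replicate 3 (0.15), and with library totals (0.21) or only the 6 libraries compared (0.24). The call of cpz-1 was lost without F3 replicate 2 (-0.15), and that of cpz-2 without F0 replicate 2 (-0.21) or F3 replicate 2 (-0.17). With only the 6 libraries compared, cpz-1 (-0.22) and cpz-2 (-0.24) were not called either.

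**Figure D3:**
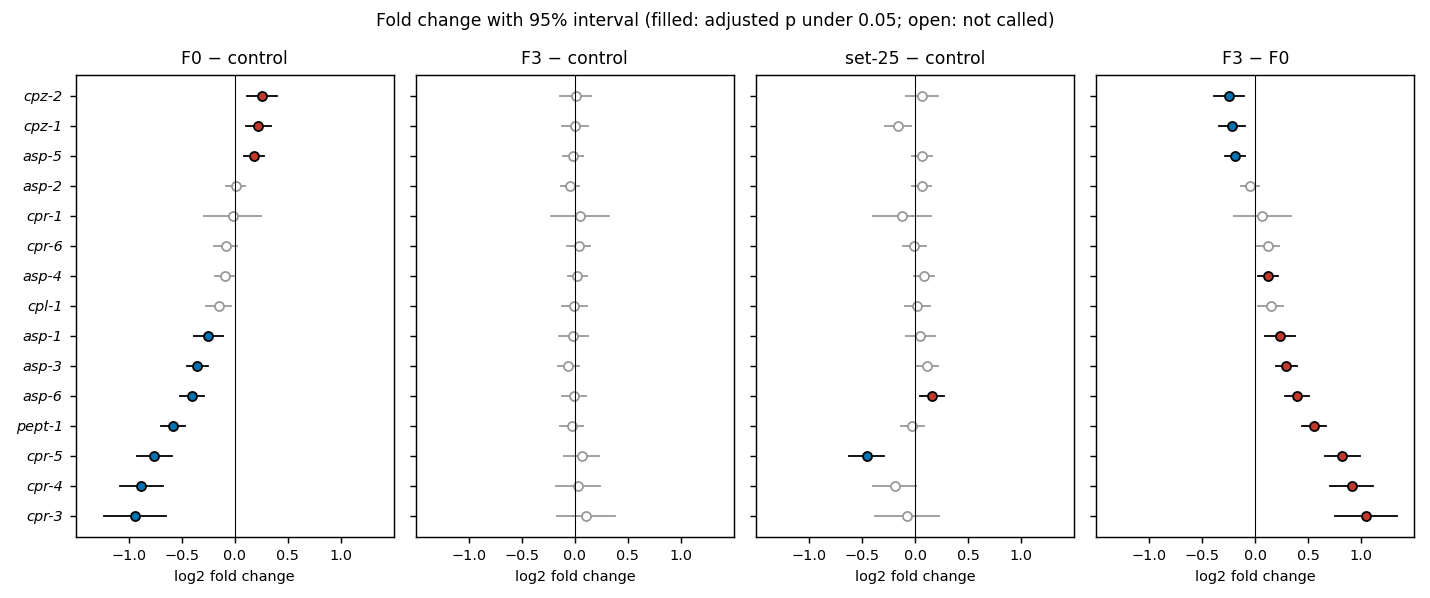
Log2 fold change of each member tested in 4 comparisons, with 95% intervals not adjusted for the number of genes. Filled circles mark genes called by edgeR and open circles those not called. In F0 against control, values run from -0.94 for cpr-3 to 0.26 for cpz-2, while all F3 against control values lie between -0.06 and 0.11.

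In set-25 mutants 1 member was lower and 1 higher than in control, and 13 were not called. Over all genes tested 17% were called, 8.14% lower and 8.9% higher, so the members' share was not above that of all genes. Groups did not overlap for 4 members that were higher and 3 that were lower, against 39.7% of all genes tested, 18.8% higher and 21% lower. The gene that fell was cpr-5, at 302, 342 and 322 CPM in set-25 libraries 1 to 3 against 417 to 460 CPM in control (log2 -0.46, SE 0.08, adjusted p 0.00118 by edgeR). No mutant library reached the control range. The call held without each single library, with all 6 such fits called. Without set-25 libraries 1 and 3, a test added once their ribosomal RNA shares had been seen, the difference was -0.37 and not called (adjusted p 0.0701). Over all alternatives its adjusted p ran from 1.78e-19 to 0.0701.

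The gene that rose was asp-6, at 1180, 1274 and 1180 CPM against 1071 to 1094 CPM in control (log2 0.16, SE 0.05, adjusted p 0.0473 by edgeR). The groups did not overlap, but the call was lost in each of the 6 fits without a single library (0.11 to 0.18). It was also lost with the replicate block (0.16, adjusted p 0.0703), with no filter on low counts (0.13, adjusted p 0.0622) and with library totals (0.07, adjusted p 0.584), and its adjusted p over all alternatives ran from 0.00246 to 0.584.

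The other cathepsin genes showed smaller differences in the mutants. Levels of cpr-4 were 502, 495 and 531 CPM, all below the control libraries (log2 -0.19, 95% interval -0.40 to 0.01), and those of cpz-1 were 302, 293 and 300 CPM, also all below (-0.16, 95% interval -0.29 to -0.04). Neither was called (adjusted p 0.189 and 0.0609 by edgeR). The level of cpr-3 was 5.59, 6.98 and 5.29 CPM, that of cpr-6 was 821, 815 and 809 CPM and that of cpr-1 was 384, 418 and 359 CPM. These overlapped control, as did cpl-1 at 1384, 1357 and 1416 CPM and cpz-2 at 43.3, 42.4 and 47.5 CPM.

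Among the aspartyl genes, asp-3 was at 881, 914 and 927 CPM, asp-2 at 660, 636 and 660 CPM and asp-4 at 423, 415 and 422 CPM. All 3 were above every control library without being called (log2 0.12, 0.06 and 0.09, with adjusted p 0.1, 0.323 and 0.194 by edgeR). Over the alternative settings asp-2 ran from -0.03 to 0.07 and asp-4 from -0.0031 to 0.09, so their direction depended on the setting. Values of asp-3 kept their sign, from 0.03 to 0.14. Levels of asp-1 (1430, 1538 and 1445 CPM) and asp-5 (411, 444 and 408 CPM) overlapped control. The transporter gene pept-1, at 90.9, 97.7 and 99.0 CPM, also overlapped control (-0.02, 95% interval -0.14 to 0.09).

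In the same mutants, 5 of 12 transcription factor genes of intestine and lysosome were higher and 0 lower: daf-16, the insulin pathway factor (log2 0.62, SE 0.05), pha-4 (0.81, SE 0.18), nhr-8 (0.41, SE 0.10), hlh-30, a regulator of lysosomal genes (0.33, SE 0.09), and skn-1 (0.32, SE 0.04). Of these, pha-4 was also on the list of pharynx markers. The shares over all genes tested in set-25 were 8.9% higher and 8.14% lower. Of 21 V-ATPase subunits 4 were higher and 6 lower, led by vha-20 (-0.36, SE 0.05). Carboxypeptidase and legumain genes were higher in 3 of 13, led by ctsa-1.2 (0.41, SE 0.06), and of 10 aminopeptidase and dipeptidyl peptidase genes 1 was higher and 4 were lower, led by lap-1 (-0.25, SE 0.05). Of 18 lysosomal membrane and hydrolase genes 3 were higher and 1 lower, led by hex-1 (0.36, SE 0.06). Neither cystatin gene and 0 of 9 amino acid transporter genes were called by edgeR, with 1 of the transporters at an unadjusted p under 0.05. Of 19 intestine markers 4 were higher and 1 lower, summing to 1339 to 1373 CPM against 1281 to 1343 CPM in control. Epidermis markers were lower in 2 of 10, with a summed level of 1011 to 1189 CPM against 1293 to 1316 CPM. Most of the lower epidermis sum lay in col-19, called lower, at a mean of 1156 CPM in control and 952.5 CPM in set-25. Of 10 neuron markers 2 were higher and 1 lower, with a summed level of 173 to 181 CPM, below the control range of 194 to 204 CPM. The lower one was snb-1, at a mean of 75.8 CPM in control and 51.9 CPM in set-25. The mean sum of the list was 198 CPM in control and 177 CPM in set-25, so the lower sum lay in that gene and not across the list. Of 8 body wall muscle markers 1 was higher and 1 lower, and their sum overlapped control. Their part in the members' values was not tested.

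Ratios of 2 members within a library do not depend on library scaling. The pairs given were chosen after their values were seen and are described without a test. The log2 ratio of cpr-4 to cpr-6 was -0.49 ± 0.10 in control and -1.29 ± 0.03 in F0, and was -0.51 ± 0.17 in F3. In set-25 it was -0.68 ± 0.06, below every control library. For cpr-5 over cpr-6 it was -0.89 ± 0.09 in control, -1.57 ± 0.20 in F0, -0.86 ± 0.15 in F3 and -1.34 ± 0.10 in set-25. In both pairs with cpr-6 no F0 library overlapped control. The ratio of cpr-4 to cpr-5, in contrast, was 0.40 ± 0.02 in control and 0.28 ± 0.20 in F0, which overlapped, and 0.66 ± 0.11 in set-25, above every control library.

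The aspartyl genes asp-5 and asp-6 lie on either side of asp-12 and shifted against each other in F0. Their log2 ratio was -1.43 ± 0.02 in control, -0.85 ± 0.01 in F0, -1.44 ± 0.05 in F3 and -1.52 ± 0.01 in set-25. Also between other pairs of like enzymes the ratio moved in F0, with cpz-1 over cpl-1 at -2.03 ± 0.05 in control and -1.66 ± 0.03 in F0, and asp-2 over asp-3 at -0.42 ± 0.03 and -0.06 ± 0.06. In set-25 the ratio of cpz-1 to cpl-1 was -2.22 ± 0.02, below every control library.

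**Figure D4:**
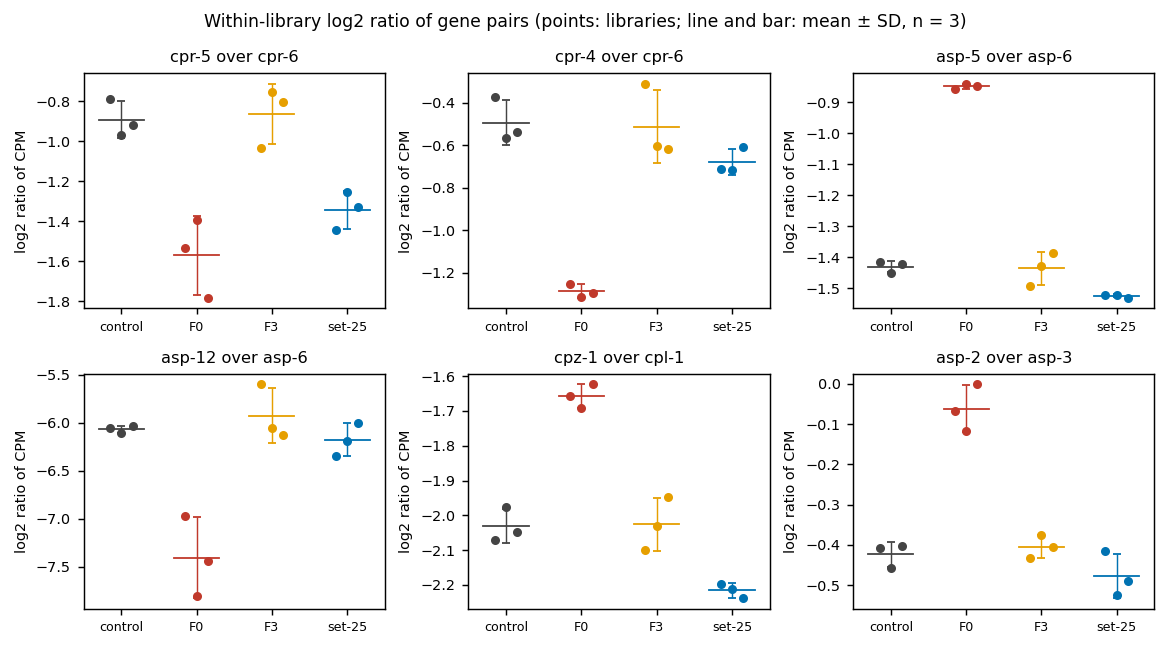
Log2 ratio of CPM for 6 pairs of protease genes within each library. Points are libraries in replicate order, lines are means and bars are SD (n = 3). The F0 points stand apart from the control points in each pair drawn, with asp-5 over asp-6 at -0.85 in F0 and -1.43 in control. Computed but not drawn were cpr-4 over cpr-5 and cpr-8 over cpr-5, which overlapped between F0 and control. Also not drawn were cpz-2 over cpl-1 and pept-1 over asp-1, which did not overlap.

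The current annotation gives asp or cpr symbols to 14 more rows, which the table lists under sequence names and which were not members. Of these 7 were tested, and the other 7 (asp-7, asp-9, asp-11, asp-15, asp-16, asp-18 and asp-19) had 0 to 43 counts over all 12 libraries. In F0, 4 of the 7 were lower and 1 higher, where 12% of all genes tested were lower and 16.6% higher. The largest difference was in asp-12 (F21F8.4), which lies between asp-6 and asp-5 in the order of protein-coding genes in WBcel235. Its level was 16.4, 15.8 and 16.3 CPM in control and 6.70, 3.58 and 4.73 CPM in F0 (log2 -1.69, SE 0.23, adjusted p 0.000462 by edgeR). Thus asp-12 and asp-6 were lower and asp-5 higher, with no overlap in any of the 3. In F3, asp-12 stood at 23.8, 15.4 and 15.3 CPM.

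The level of asp-8 (F59D6.3) was 10.6, 10.1 and 11.5 CPM in control. It was lower in F0 at 3.94, 2.47 and 4.30 CPM (log2 -1.58, SE 0.15, adjusted p 7.24e-07 by edgeR) and in set-25 at 4.24, 3.87 and 5.04 CPM (-1.34, SE 0.16, adjusted p 2.71e-05 by edgeR). In F3 it stood at 12.5, 11.5 and 14.1 CPM, above every control library but not called (0.25, adjusted p 0.997 by edgeR). The calls of asp-8 in F0 and set-25 share their control libraries and held under all 15 and 16 alternatives run. Its set-25 level was 0.396 of control, the lowest such fraction among the members and related genes tested.

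The gene next to cpr-5, cpr-8 (W07B8.1), was also lower in F0. Its level was 9.17, 11.0 and 10.1 CPM in control and 5.41, 6.41 and 4.62 CPM in F0 (log2 -0.88, SE 0.12, adjusted p 3.2e-05 by edgeR), and 7.27, 7.43 and 9.47 CPM in set-25 (-0.37, adjusted p 0.0543 by edgeR). The abundant cpr-9 (F57F5.1), at 664 ± 15.9 CPM per kb of exon in control, overlapped cpr-6 in level per length. It had 901, 906 and 941 CPM in control and 684, 779 and 718 CPM in F0 (-0.33, SE 0.06, adjusted p 0.000741 by edgeR). The gene called higher in F0 was asp-14 (0.33, SE 0.10, adjusted p 0.0329 by edgeR), with 69.8, 51.9 and 60.9 CPM in F0 against 45.6 to 50.2 CPM in control. Its call was lost in 5 of the 6 fits without a single library: without control replicates 1 (0.35), 2 (0.33) or 3 (0.28) and F0 replicates 1 (0.21) or 3 (0.32). The abundant asp-13 (0.04) and the scarce asp-17 (-0.14) were not called in F0, and 0 of the 7 were called in F3 by edgeR or DESeq2, with 0 at an unadjusted p under 0.05.

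**Figure D5:**
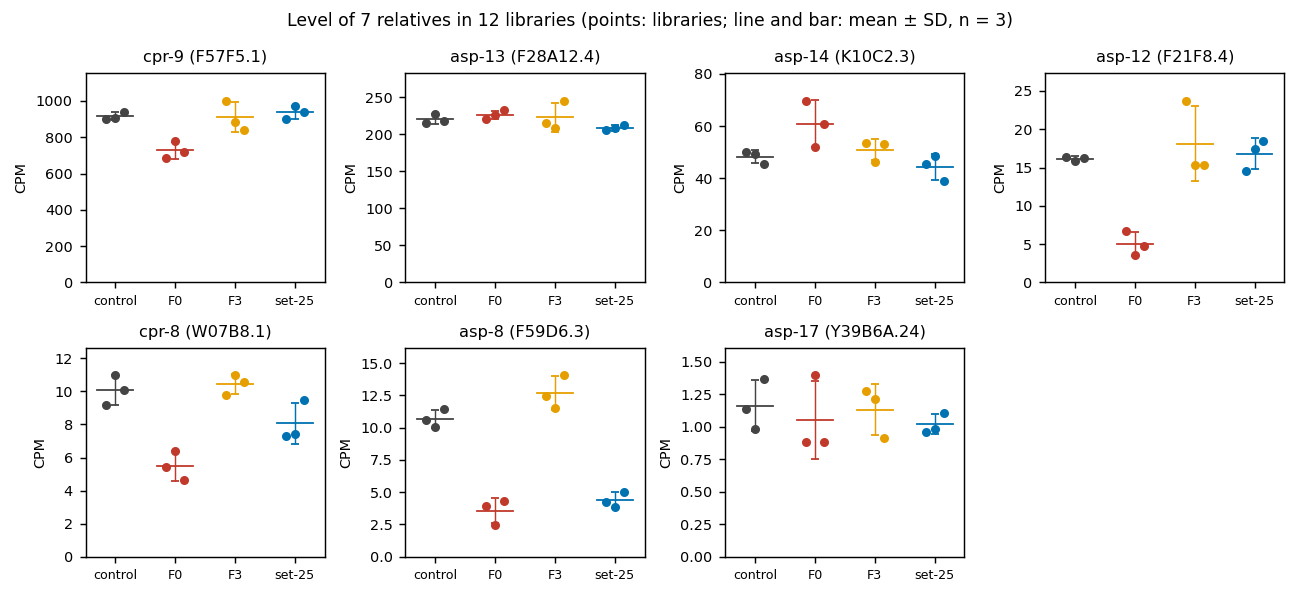
CPM of 7 related protease genes that the table lists under sequence names, in each of 12 libraries on linear axes from 0. Points are libraries in replicate order, lines are means and bars are SD (n = 3). Levels of asp-8 are low in both F0 and set-25, while those of asp-12 and cpr-9 are low in F0.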

How the data were processed

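The authors deposited 1 table of estimated counts that need not be whole with 99761 rows, of which 45836 were genes and the rest repeat copies, from stranded total RNA libraries depleted of ribosomal RNA, per the labels' protocols. Per the submitters' processing notes, the tools were TopHat2 2.1.0 and featureCounts 1.5.1, with DESeq2 1.8.1 listed beside them and no step assigned to any. Not given in the sources used here: the genome build, the annotation, the strand setting and how multiply matching reads were counted. Of member values 88.5% were not whole (tolerance 1e-06), so reads may be divided among like genes, and values of near-identical proteases are uncertain. Exons of asp-2, cpz-2, asp-4 and cpr-4 overlap a gene on the other strand by 74, 59, 33 and 21 bases.

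Columns were matched to samples by library name, leaving 0 unused. Expected counts were rounded and fitted with edgeR 4.0.16 in R 4.3.3 (TMM, filterByExpr, robust quasi-likelihood) over all 12 libraries with a term per group, two-sided, and 14466 genes were tested. The SE is the coefficient divided by the root of F. Alternatives used other scalings, filters, DESeq2 1.42.0, fewer libraries and a replicate block. The methods were tested on counts simulated from the same type of model, with the same spread in every group. Such a test cannot show how they handle groups of unequal spread, and nothing here rests on it. The p-values set each difference against the spread between these libraries, estimated per gene and shared by all groups. Pairs of replicates differed by more than counting noise, and unequally between groups. The chi-square per degree of freedom was 3.86 to 4.40 in control and 5.22 to 5.36 in F0. It was 17.9 to 39.2 in F3 and 61.8 to 238 in set-25, so the shared spread may not describe those groups well. These values cover genes of all kinds, ribosomal RNA included, scaled by library totals without TMM. They need not rank the groups as the members do. Over the 15 members tested the median coefficient of variation was 7.18% in F3 and 3.96% in set-25.

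The members and lists were chosen with earlier results of these data known. Every member is reported. The rule was to name, for each list and comparison, the called gene with the smallest p. It was followed for F0 and set-25 against control. Such genes of the tissue marker lists are not named, except snb-1 and, among the transcription factors, pha-4. Those of F3 against F0 are not named. The set of related genes, the ratios, the other transcription factors and cpi-2, pept-2, pept-3 and asp or cpr relatives were named after their values were seen. So were the tissue markers col-19, myo-1, myo-2 and snb-1. Symbols and exon lengths come from WBcel235 annotation, and coordinates and sequences are not used here.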

Additional observations from a re-analysis of the deposited data

How the results depend on the processing

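Of 915 values of members recomputed under alternatives, 0 called values changed sign, 28 lost a call and 26 gained one, and 52 values called in neither fit changed sign near 0. In F0 the count was 3 higher and 6 to 10 lower under every alternative, and 3 higher and 7 to 8 lower without 1 library. In F3 against control it was 0 and 0 under every alternative. For F3 against F0, members higher numbered 6 to 10 over the alternative settings and 7 to 10 without 1 library. Members lower in that comparison numbered 1 with only the 6 libraries compared and 1 to 3 without 1 library. In set-25, members higher numbered 0 with library totals, 0 with no filter, 0 with the replicate block, 0 without set-25 libraries 1 and 3, 2 by DESeq2, 3 with only the 6 libraries compared, and 0 to 0 without 1 library. Members lower in set-25 numbered 2 with library totals, 3 with no filter, 3 with only the 6 libraries compared, 0 without set-25 libraries 1 and 3 (which leaves 1 mutant library, assumed to vary like the other groups), and 1 to 1 without 1 library. The cause was not tested.

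No clear pairing of libraries by replicate number was seen: correlations of same-numbered deviations ran from -0.207 to 0.116. The largest correlation with a differently numbered library ran from -0.0133 to 0.285. Deviations from a mean of 3 libraries are tied to each other, so these values cannot exclude pairing. With the replicate block the F0 count stayed at 3 higher and 7 lower, and asp-4 in F3 against F0 (0.12) and asp-6 in set-25 (0.16) were not called. Library 3 of set-25 has the fewest counts, and cpr-3, with 1932 counts in all, is the member whose precision depth limits most.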

Other observations

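Other protease families were counted in the same way. The shares over all genes tested were 16.6% higher and 12% lower in F0, and 8.9% higher and 8.14% lower in set-25. In F3 against control 0.263% of all genes tested were called. In F0, calpain genes, which encode calcium-dependent cysteine proteases of the cytosol, were higher in 3 of 8 and lower in 0, led by clp-8 (log2 3.31, SE 0.51). Caspase genes were higher in 1 of 3, which was csp-2 (1.71, SE 0.23), and lower in 1. Of 22 astacin metalloprotease genes 5 were higher and 0 lower, led by nas-9 (0.57, SE 0.09), and trypsin-like genes were lower in 1 of 10, which was try-14 (-0.36, SE 0.04). Serpin genes were higher in 1 of 6, which was srp-6 (0.42, SE 0.09), and lower in 1. In set-25, 3 of 22 astacin genes were higher and 1 lower, led by nas-20 (0.51, SE 0.10), trypsin-like genes higher in 2 and lower in 2 of 10, led by try-1 (-0.28, SE 0.06), and serpins higher in 2 and lower in 1 of 6, led by srp-3 (-0.99, SE 0.22). Of 8 calpain genes 1 was lower, clp-1 (-0.20, SE 0.05), and 0 of 3 caspase genes were called or had an unadjusted p under 0.05. In F3 against control these lists had 0 genes called by edgeR, and an unadjusted p under 0.05 in 1 calpain and 1 astacin gene.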
